A study of Mus musculus with 24 samples.

Results

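A list of 37 macrophage and myeloid genes was followed through mouse jaws of embryonic day 12.5. Genes were taken by symbol, and each was read from its probe set with the highest mean over the 24 arrays. All 37 were among the 18193 genes of the table. Of these, 34 lay above the 30th percentile of their array in at least 3 arrays and were tested. Itgam, the alpha chain of complement receptor 3, Cd163, a scavenger receptor for haemoglobin complexes, and Timd4, a receptor for dying cells, lay above that percentile in 0 arrays and were not tested. Among the tested genes, P2ry12 was above it in 8 arrays, Cybb in 11, and Aif1 and C5ar1 in 23, while the other 30 were above it in all 24. For P2ry12 and Cybb most values lie below the percentile, and the size of their differences is uncertain.

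The study compared jaws of embryos labelled Tgfbr2 knockout (KO) with those of littermates labelled control, on the C57B6 background. The KO embryos came from Wnt1-Cre; Tgfbr2 fl/+ mice mated with Tgfbr2 fl/fl mice and are described as recognised by cleft palate and a calvarial defect. Whether these features were seen in the embryos measured, of embryonic day 12.5, could not be checked here. The Cre state and Tgfbr2 alleles of the controls are not given in the sources used here, and neither is whether embryos were pooled. Each jaw was cut into 2 ends, distal and proximal, which were measured apart. The 8 groups were KO mandible distal, control mandible distal, KO mandible proximal, control mandible proximal, KO maxilla distal, control maxilla distal, KO maxilla proximal and control maxilla proximal, with 3 arrays each, numbered 1 to 3. Values are log2 signal of single-colour arrays, so a difference of 1 is a doubling, and levels of different genes cannot be set against each other.

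Macrophages of the early embryo come from blood-forming cells of the yolk sac and later the fetal liver, and enter the tissues before bone forms. They depend on the transcription factor PU.1, encoded by Spi1, and on the receptor for colony stimulating factor 1, encoded by Csf1r. They clear dying cells, digest what they take up in lysosomes, secrete complement C1q and take part in the shaping of vessels and nerves. Wnt1-Cre is active in the neural crest, the source of facial mesenchyme but not of macrophages. In bulk tissue, fewer cells of a type and less RNA per cell cannot be told apart.

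Several facts of the arrays touch the results. Tgfbr2 averaged 12.11 ± 0.40 in arrays labelled KO and 11.78 ± 0.29 in control arrays (SD, n = 12 each), a difference of 0.34 ± 0.11 (SE) that did not pass (limma adjusted p = 0.112). The sources used here do not say which part of the gene the probe set covers, and a probe set outside the deleted part checks nothing, so the genotypes below are those of the labels. Over the genes tested, 9 of 24 arrays correlated better with the opposite end of their jaw and genotype than with their own group. The clearest were control maxilla distal 1, with r = 0.36 to its own group and 0.81 to the other end, control maxilla proximal 1, with 0.54 and 0.81, and KO mandible distal 1, with 0.33 and 0.67. KO mandible proximal 1, its counterpart of the same number, had 0.44 and 0.54. The other 5 of the 9 were kept, KO maxilla proximal 3 (0.20 and 0.33), KO mandible distal 2 (0.55 and 0.63), KO mandible proximal 3 (0.59 and 0.67), control maxilla distal 2 (0.58 and 0.68) and control maxilla distal 3 (0.58 and 0.61). The set of 4 was carried over from earlier work on these data, and these values alone do not separate it from the 5. Results that rest on these 4 arrays are also given for the other 20 arrays, on which 14828 genes were tested. Because the 4 arrays were doubted for resembling the other end, leaving them out favours differences between ends in any gene. All 4 control arrays numbered 2 had a signal of 10.22 to 10.41 for the Y-linked gene Eif2s3y, and the other 20 arrays of both genotypes had 3.42 to 3.88. No array labelled KO had the high signal, so sex as read from this gene is not balanced between genotypes. A fit without those 4 control arrays is among the alternatives below. The 4 regions of 1 genotype and number may share an embryo or a pool, which the sources used here do not give. Deviations from group means had a median correlation of 0.15 over 36 array pairs that share both genotype and number, and of -0.11 over 72 pairs that share the genotype alone. The test treats all 24 arrays as independent, which can make p-values too small, and those p-values measure the spread between these arrays. A fit that took each genotype and number as 1 random block called 6 genes in all for KO over the 4 regions, where the fit without it called 70, and both fits called 0 of the 34.

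Most of the 34 genes varied together from array to array. The correlation of each gene with the mean of all the others across 24 arrays had a median of 0.86, and 27 genes were at 0.7 or above. For deviations from group means the median was 0.88, so the genes also varied together among arrays of 1 group. Tyrobp, the adaptor that passes on signals of Trem2 and related receptors, had the highest value, 0.97. C1qb and C1qc, which encode chains of complement C1q, and Ly86, which encodes a partner of a Toll-like receptor homologue, each had 0.96. The 3 C1q genes correlated with each other at 0.89 for C1qa and C1qb, 0.98 for C1qa and C1qc and 0.94 for C1qb and C1qc. Over all 561 pairs the median was 0.69, and 518 pairs were above 0. All these correlations share the arrays and their normalisation and are descriptions. How many of all genes or pairs reach such values was not counted.

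**Figure D1:**
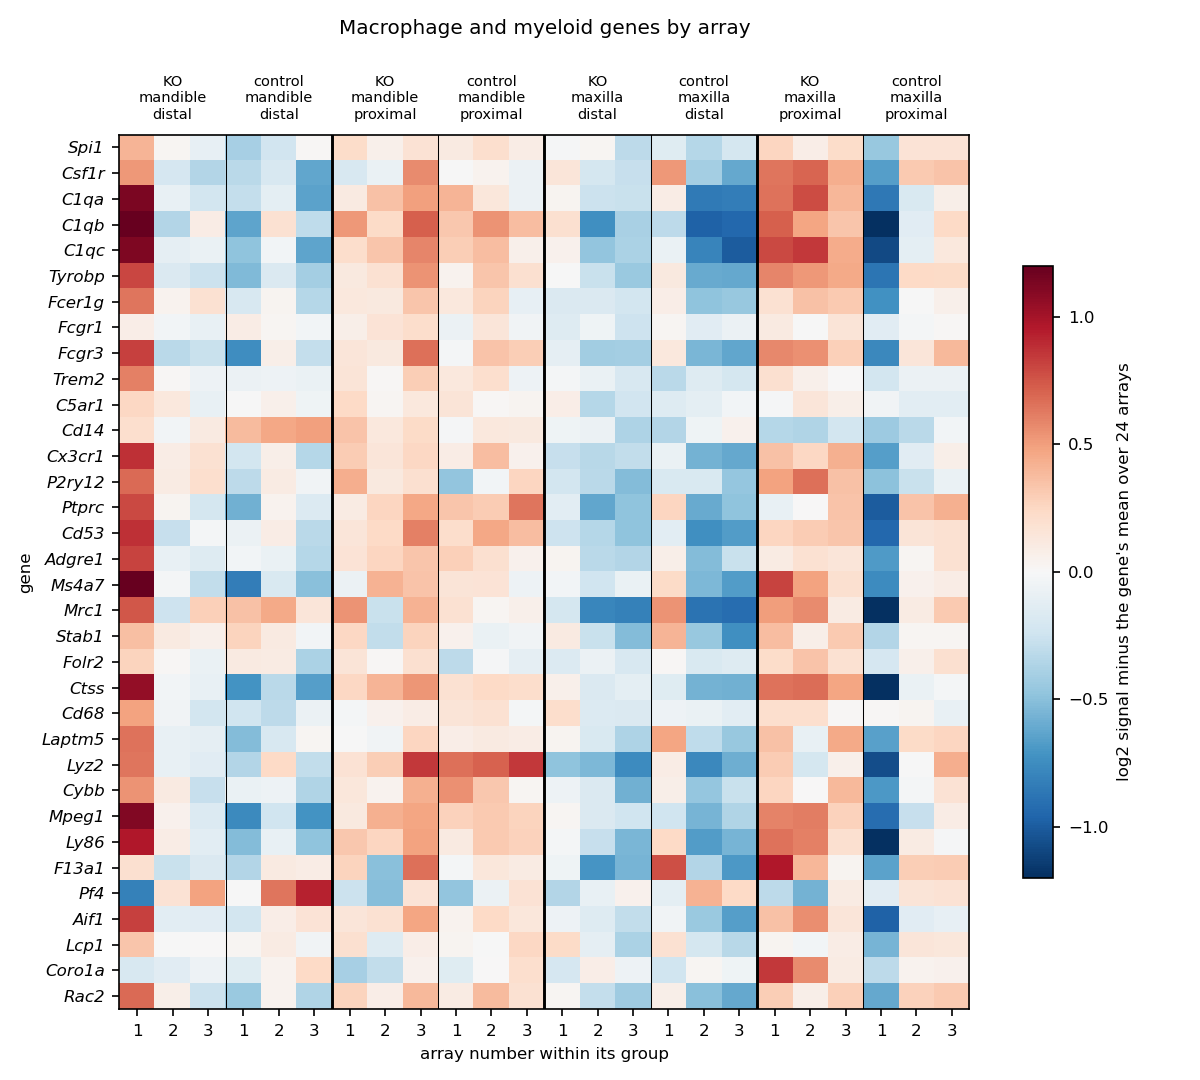
Deviation of the log2 signal of 34 macrophage and myeloid genes from the gene's own mean, in 24 arrays ordered by group. Most rows share their high and low arrays, with KO mandible distal 1 high and control maxilla proximal 1 low, while Pf4, Cd14 and Coro1a follow other patterns.

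A score, the mean deviation of the 34 genes from their own means, gives the level of the list in an array. It was highest in KO mandible distal 1, at 0.63, where arrays 2 and 3 of that group had -0.05 and -0.07, and the control mandible distal arrays had -0.26, 0.02 and -0.19. It was lowest in control maxilla proximal 1, at -0.68, where arrays 2 and 3 had 0.03 and 0.13, and the KO maxilla proximal arrays had 0.37, 0.29 and 0.23. Both extreme arrays were among the 4 doubted for their end. KO mandible proximal arrays had 0.15, 0.08 and 0.38, and the control mandible proximal mean was 0.15 ± 0.05 (SD, n = 3). In the distal maxilla the KO arrays had -0.05, -0.27 and -0.35, against 0.05, -0.43 and -0.46 in controls. The KO and control scores overlapped in 3 of the 4 regions, and in the proximal maxilla they did not.

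**Figure D2:**
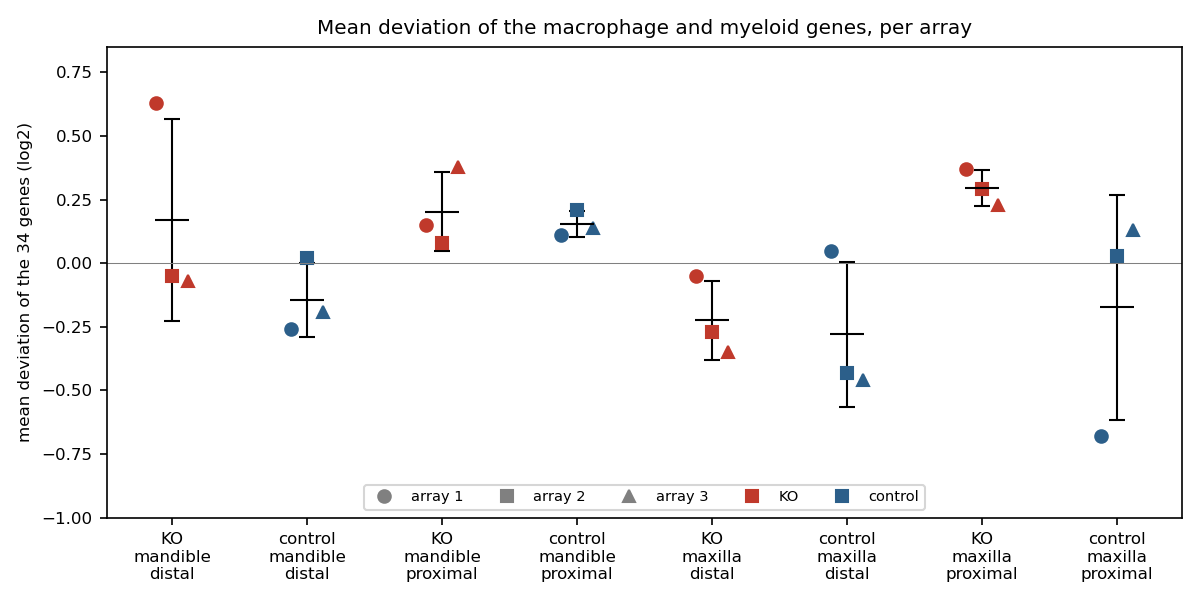
Score of the 34 macrophage and myeloid genes (mean log2 deviation, vertical axis) in each array of the 8 groups, with the group mean and SD of 3 arrays. KO mandible distal 1 has the highest score, 0.63, and control maxilla proximal 1 the lowest, -0.68.

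Only 3 genes correlated with the others below 0.3 across 24 arrays. Pf4, platelet factor 4, which platelets and their precursors store and some macrophages express, had -0.45. The genes most like Pf4 were Tubb1 (r = 0.96), Gp9 (0.95) and Fermt3 (0.91), and the score of the megakaryocyte list correlated with it at 0.94. Cd14, the coreceptor for bacterial lipopolysaccharide, had 0.12 and was most like Acad8 (0.92). Coro1a, an actin-binding protein of blood cells that is also expressed by neurons, had 0.27, was most like Shf (0.87), and correlated at 0.68 with the neuron score. Outside the list, the gene most like the score was Ms4a6b, at r = 0.95 over 24 arrays. It was followed by Actg2 and Orai3 at 0.94, BC028528 at 0.93, Maged2 and Ncf1 at 0.92, Esyt1 at 0.91, and Kcnj8, Selenop and Tfpi at 0.90. None of these 10 passed the test of KO against control, with limma adjusted p-values of 0.111 for Esyt1 to 0.333 for Ncf1.

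Promoter windows are shown for genes of both patterns, because the members vary together and Pf4 does not follow them. RefSeq windows of build GRCm38.p6, each of 300 bases with 250 before the start of the gene and 50 after it, were matched by symbol to 30 of the 37 genes. The motif searched was GAGGAA, the core bound by PU.1 and other ETS factors, on either strand, where its reverse reads TTCCTC. It stood in the window of 18 of 30 members (60%) and of 8446 of 27025 genes in the table (31.3%). The TATAAA motif stood in 3 of 30 members (10%) and 15.7% of genes, and CACGTG in 1 member (3.33%) and 8.09% of genes. These matches describe the letters of the window and show no binding. Capitals mark GAGGAA or TTCCTC. Ctss is at chr3:95526536-95526835, plus strand, C1qb at chr4:136886151-136886450, minus strand, C1qc at chr4:136892865-136893164, minus strand, Cd53 at chr3:106790100-106790399, minus strand, Mpeg1 at chr19:12460520-12460819, plus strand, and Pf4 at chr5:90772185-90772484, plus strand.
Ctss: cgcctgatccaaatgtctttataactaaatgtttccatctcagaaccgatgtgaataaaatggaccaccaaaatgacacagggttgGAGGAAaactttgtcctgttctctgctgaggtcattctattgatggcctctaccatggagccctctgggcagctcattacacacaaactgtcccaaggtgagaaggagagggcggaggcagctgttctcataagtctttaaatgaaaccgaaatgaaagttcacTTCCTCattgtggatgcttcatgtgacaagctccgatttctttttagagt
C1qb: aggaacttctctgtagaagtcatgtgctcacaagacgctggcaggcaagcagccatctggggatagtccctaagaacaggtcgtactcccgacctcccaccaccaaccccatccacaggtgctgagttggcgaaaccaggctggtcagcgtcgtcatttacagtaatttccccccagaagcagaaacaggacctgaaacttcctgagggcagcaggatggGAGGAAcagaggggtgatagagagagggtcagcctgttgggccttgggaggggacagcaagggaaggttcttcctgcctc
C1qc: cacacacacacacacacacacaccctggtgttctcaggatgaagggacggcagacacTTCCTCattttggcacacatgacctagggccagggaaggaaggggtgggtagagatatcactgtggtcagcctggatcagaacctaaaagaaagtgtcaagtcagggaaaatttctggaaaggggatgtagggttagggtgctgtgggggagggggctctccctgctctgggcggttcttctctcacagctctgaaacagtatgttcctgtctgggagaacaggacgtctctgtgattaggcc
Cd53: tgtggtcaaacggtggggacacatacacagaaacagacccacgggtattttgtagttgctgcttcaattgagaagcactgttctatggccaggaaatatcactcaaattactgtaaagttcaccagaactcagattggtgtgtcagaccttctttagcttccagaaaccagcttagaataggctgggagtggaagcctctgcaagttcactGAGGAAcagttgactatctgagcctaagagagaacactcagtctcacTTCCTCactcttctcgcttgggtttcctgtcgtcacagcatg
Mpeg1: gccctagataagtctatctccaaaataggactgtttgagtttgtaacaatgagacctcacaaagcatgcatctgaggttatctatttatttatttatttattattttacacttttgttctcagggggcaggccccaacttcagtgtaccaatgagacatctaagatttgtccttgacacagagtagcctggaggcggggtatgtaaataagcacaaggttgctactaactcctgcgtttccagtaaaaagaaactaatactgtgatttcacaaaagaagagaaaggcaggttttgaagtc
Pf4: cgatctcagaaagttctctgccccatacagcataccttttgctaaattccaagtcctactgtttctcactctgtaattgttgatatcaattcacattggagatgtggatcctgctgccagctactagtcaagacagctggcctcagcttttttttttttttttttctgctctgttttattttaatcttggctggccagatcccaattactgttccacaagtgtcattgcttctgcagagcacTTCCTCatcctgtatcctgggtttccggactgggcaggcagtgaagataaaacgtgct
Ctss and Cd53 hold the motif on both strands, C1qb on the strand shown, and C1qc and Pf4 on the other. The Mpeg1 window holds none, although Mpeg1 followed the other members at r = 0.88, and the Pf4 window holds it although Pf4 did not.

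The ends of the jaws are given as distal minus proximal. Averaged over both jaws and genotypes, 32 of 34 genes had a lower mean distally, with a median difference of -0.24 against -0.01 over all genes tested. With all 24 arrays, 0 of 34 passed in either direction, against 1.59% of all genes higher and 2.28% lower distally. At an unadjusted limma p under 0.05, 17 were lower and 1 higher distally, against 15% and 11% of all genes. The smallest adjusted p was 0.0683, of Lyz2, which encodes lysozyme. Lyz2 had distal values of 7.28, 7.73 and 8.70 (lowest, median, highest of 12 arrays) against 6.99, 8.36 and 8.90 proximally, a difference of -0.51 ± 0.16 (SE). The distal range lay inside the proximal one, and the lowest proximal value was that of control maxilla proximal 1. With all probe sets tested singly, 2 of 46 member probe sets passed between ends, against 649 of 27655 in all.

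Without the 4 doubted arrays, 26 of 34 genes passed as lower distally and 0 as higher, against 10.9% of all genes lower and 6.85% higher. The median difference was then -0.41, against -0.02 over all genes. Leaving out 1 array also made calls, 15 without KO mandible distal 1 (6.73% of all genes lower and 4.88% higher), 11 without control maxilla proximal 1 (4.17% and 2.68%) and 4 without control maxilla distal 1 (4.95% and 3.48%). There were 3 without KO maxilla proximal 3 (9.83% of all genes lower and 6.73% higher) and 1 without control mandible distal 2 (5.00% and 3.05%). The call therefore rests on which arrays are kept.

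In these 20 arrays both lineage genes were lower distally. Csf1r differed by -0.61 ± 0.086 (SE, limma adjusted p = 0.00042) and Spi1 by -0.31 ± 0.058 (adjusted p = 0.00321). All 3 C1q genes were lower, C1qc by -0.76 ± 0.094 (adjusted p = 0.000174), C1qb by -0.77 ± 0.13 and C1qa by -0.66 ± 0.083. Both signalling adaptors were lower. Tyrobp had 8.21, 8.49 and 8.82 in the 10 distal arrays against 8.87, 9.12 and 9.41 in the 10 proximal ones (lowest, median, highest), so the ends did not overlap (-0.69 ± 0.067, limma adjusted p = 3.23e-05). Fcer1g, the chain shared by several Fc receptors, differed by -0.34 ± 0.057. How many of all genes had ends without overlap was not counted, here or below.

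The same selection of arrays limits the calls, p-values and gaps between ends given next. Of the 11 tested surface receptors, 8 passed as lower distally in the 20 arrays, against 10.9% of all genes. Cd53, a tetraspanin of blood cells, had 6.15 to 6.97 distally and 7.04 to 7.49 proximally, again without overlap (limma adjusted p = 3.42e-05). Fcgr3, a low-affinity receptor for IgG, differed by -0.71 ± 0.10 and Cx3cr1, the fractalkine receptor, by -0.40 ± 0.058. Among lysosomal and secreted products, 8 of 9 passed as lower. Ctss, the lysosomal protease cathepsin S, had the smallest adjusted p of the list, with 9.05, 9.53 and 9.83 distally and 9.69, 10.10 and 10.44 proximally (-0.63 ± 0.052, adjusted p = 8.03e-06), and its ends overlapped. Lyz2 differed by -0.77 ± 0.10 and Mpeg1, which encodes a pore-forming protein of phagocytes, by -0.59 ± 0.078.

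The remaining roles were mixed. The mannose receptor gene Mrc1 (-0.48 ± 0.11) was the single one of 3 tested scavenger and uptake receptors to pass, while Stab1 (-0.22 ± 0.088) and Folr2 (-0.18 ± 0.064) did not. Of the 4 actin genes, Aif1 (-0.39 ± 0.067) and Rac2 (-0.52 ± 0.082) passed, and Lcp1 (-0.14 ± 0.066) and Coro1a (-0.14 ± 0.090) did not. Pf4 was 0.36 ± 0.14 and Cd14 0.14 ± 0.052, the only 2 members with a higher mean distally, and neither passed (limma adjusted p = 0.0813 and 0.0841).

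Other cell types also differed between ends in the same 20 arrays. The score of 5 measured Schwann and glial genes, of 7 listed, lay between -1.44 and 0.05 in the distal arrays and between 0.09 and 1.66 in the proximal arrays. The score of 10 skeletal muscle genes had a median of -0.92 distally and 1.92 proximally, that of 10 neuronal genes -0.78 and 0.57, and that of 8 granulocyte genes -0.62 and 0.65. The score of the 34 macrophage and myeloid genes lay between -0.46 and 0.02 distally and between 0.03 and 0.38 proximally. The scores of 9 epithelial and 7 mesenchymal genes went the other way, with medians of 0.51 and 0.12 distally and -0.52 and -0.05 proximally. The part of these tissues in the result was not tested.

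**Figure D3:**
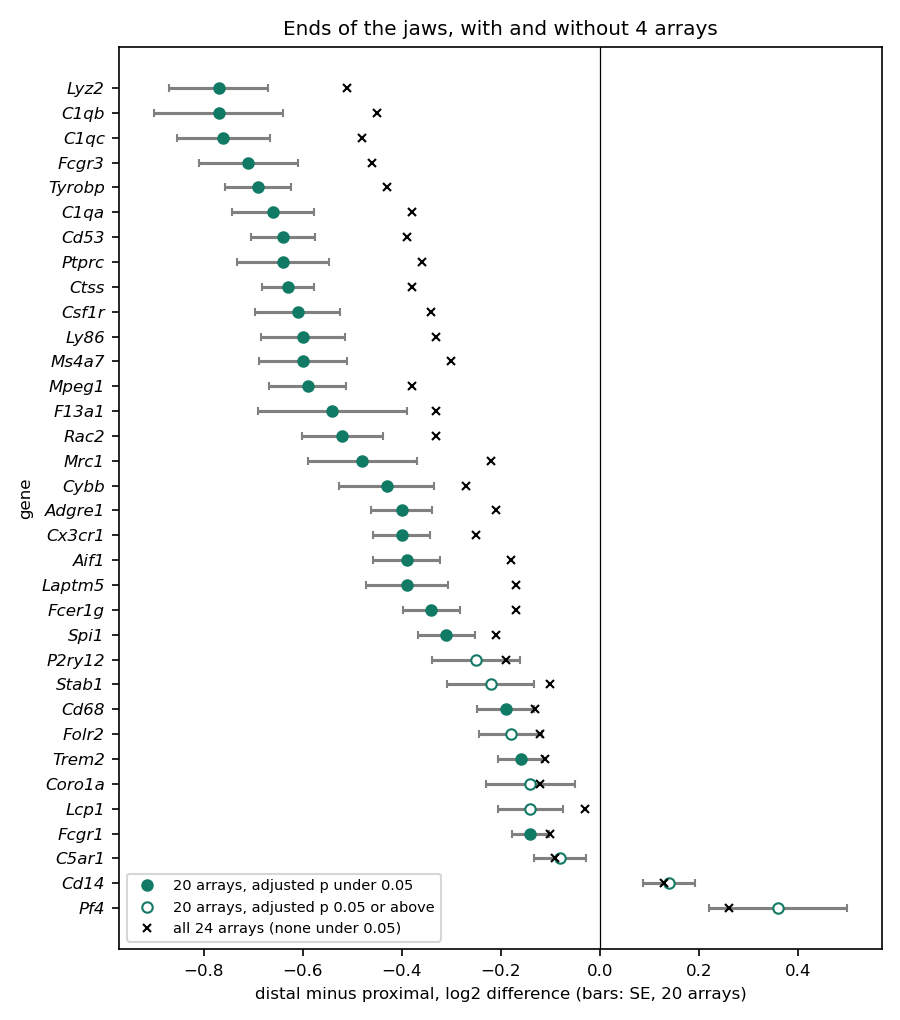
Distal minus proximal log2 difference, averaged over both jaws and genotypes, for 34 genes: circles with SE bars are the fit of 20 arrays (filled where adjusted p is under 0.05) and crosses that of all 24. The 20-array values of 32 genes lie below 0, and those of Pf4 (0.36) and Cd14 (0.14) above it.

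Within controls, the mandible gave 0 calls with all 24 arrays, against 1.11% of all genes higher and 2.34% lower distally, and 5 genes lower and 2 higher at an unadjusted limma p under 0.05, against 11.7% and 6.97% of all genes. Mpeg1 had 7.33, 7.85 and 7.37 in the control distal mandible and 8.37, 8.40 and 8.36 in the control proximal mandible, without overlap (-0.86 ± 0.26, limma adjusted p = 0.0752). Ctss had 9.05, 9.45 and 9.11 distally and 9.95, 10.01 and 9.98 proximally, also without overlap (-0.77 ± 0.28, adjusted p = 0.133). Cd14 ran the other way, with 7.32, 7.40 and 7.43 distally and 6.93, 7.07 and 7.06 proximally (0.36 ± 0.11, adjusted p = 0.083). None of the control mandible arrays was among the 4 doubted, so these values stay as they are without those arrays, but the spread estimated from 20 arrays is smaller. With it, 9 genes passed as lower and Cd14 as higher distally (limma adjusted p = 0.0314). Of all genes, 4.24% were then lower and 2.41% higher. Leaving arrays out for resembling the other end can make these adjusted p-values too small.

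In the control maxilla 0 of 34 genes passed, against 0% of all genes in either direction. No member reached an unadjusted limma p under 0.05, against 0.276% of all genes higher and 0.417% lower. With the 4 doubted arrays left out, Tyrobp (-0.85), Cd53 (-0.88) and Rac2 (-0.85) passed as lower distally, against 0.398% of all genes lower and 0.303% higher. The median of the members was then -0.54, where it was -0.10 with all arrays. Those values rest on 2 arrays at each end, and leaving out the doubted arrays favours such differences.

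The jaws differed widely across the genome. Of 34 genes 7 were called higher in the mandible and 0 lower, averaged over ends and genotypes, against 25.1% of all genes higher and 21.4% lower. The median difference of the members was 0.18, against 0.02 over all genes, and 31 of 34 were positive. At an unadjusted limma p under 0.05, 13 were higher and 0 lower, against 29.3% and 24.4% of all genes. Cd14 had the clearest difference. Its values were 6.91, 7.11 and 7.43 in the 12 mandible arrays and 6.50, 6.67 and 6.99 in the 12 maxilla arrays, with a small overlap (0.43 ± 0.057, limma adjusted p = 1.41e-05).

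Lyz2 had 7.70, 8.32 and 8.90 in mandibles and 6.99, 7.71 and 8.49 in maxillae (0.59 ± 0.16, limma adjusted p = 0.00523). The other 5 called genes differed less. Cx3cr1 differed by 0.31 ± 0.098, Cd53 by 0.38 ± 0.14, Aif1, which encodes an actin-bundling protein of macrophages, by 0.30 ± 0.12, Trem2, a receptor for lipids and debris, by 0.18 ± 0.063, and C5ar1, the receptor of complement fragment C5a, by 0.15 ± 0.048. Their adjusted p-values lay between 0.0156 for Cx3cr1 and 0.0475 for Aif1. By role, 5 of 11 tested receptors passed, 1 of 9 lysosomal and secreted products and 1 of 4 actin genes. Of the C1q genes 0 of 3 passed, of the scavenger receptors 0 of 3, and neither Spi1 nor Csf1r did. Of all genes, 25.1% were called higher in the mandible, and the share among all tested members was smaller. At an unadjusted limma p under 0.05 the share among the members was larger than the 29.3% of all genes. Whether receptors were called more often than other genes was not tested.

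Without the 4 doubted arrays the number was again 7, against 19.8% of all genes higher and 17.5% lower, with Mrc1 (0.36) and Fcer1g (0.16) called and Trem2 and C5ar1 not. It was 13 without control maxilla distal 1 (24.3% of all genes higher and 20.8% lower) and 12 without control maxilla proximal 3 (25.0% and 20.8%).

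The comparison of genotypes asked whether loss of Tgfbr2 in Wnt1-Cre cells went with a change of these genes. Averaged over the 4 regions, 32 of 34 genes had a higher mean in arrays labelled KO, with a median difference of 0.18 against 0.01 over all genes, of which 53.7% were positive. None of the 34 passed the test, against 0.282% of all genes called higher and 0.188% called lower. At an unadjusted limma p under 0.05, 15 members were higher and 1 lower in KO, against 12.6% and 10.6% of all genes. P2ry12 is among the 15, and it passed the filter only through arrays labelled KO. The smallest adjusted p was 0.0521.

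Ctss had that value. Over 12 arrays each it had 9.60, 10.10 and 10.83 in KO and 8.56, 9.54 and 10.01 in controls (lowest, median, highest), a difference of 0.61 ± 0.14 (SE). In the distal mandible its values were 10.83, 9.74 and 9.68 in KO against 9.05, 9.45 and 9.11 in controls, and in the proximal maxilla 10.42, 10.44 and 10.24 against 8.56, 9.69 and 9.75. In the proximal mandible they were 10.02, 10.18 and 10.30 against 9.95, 10.01 and 9.98. In the distal maxilla they were 9.83, 9.60 and 9.65 against 9.63, 9.20 and 9.19. KO and control ranges were apart in 3 regions and overlapped in the distal maxilla. How many of all genes had KO and control ranges apart was not counted, here or below.

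The C1q genes had the largest median of any role, 0.54, and all 3 were above 0 in every region. C1qc averaged 8.26 ± 0.50 in KO and 7.70 ± 0.50 in controls (SD, n = 12 each), with a difference of 0.56 ± 0.16 (limma adjusted p = 0.0768). C1qa differed by 0.52 ± 0.16 (adjusted p = 0.0848) and C1qb by 0.54 ± 0.21 (adjusted p = 0.146). In the distal mandible the C1qc values were 9.11, 7.88 and 7.91 in KO and 7.50, 7.95 and 7.35 in controls, so KO array 1 was alone in lying above the controls. In the proximal maxilla they were 8.78, 8.83 and 8.43 in KO and 6.90, 7.87 and 8.11 in controls, without overlap.

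Of the lineage genes, Spi1 differed by 0.17 ± 0.077 and Csf1r by 0.28 ± 0.15, and of the adaptors, Fcer1g by 0.29 ± 0.096 and Tyrobp by 0.34 ± 0.14. Among the 11 tested receptors 10 had a higher mean in KO. P2ry12, a receptor for ADP known from microglia and platelets, differed by 0.36 ± 0.089 (limma adjusted p = 0.0543) at levels around the 30th percentile, above it in 7 KO arrays and 1 control array, and Cx3cr1 by 0.33 ± 0.098 (adjusted p = 0.0826). Ms4a7, a membrane protein of macrophages, differed by 0.48 ± 0.17 (adjusted p = 0.121). Cd14 was the exception at -0.07 ± 0.057. Fcgr1, the high-affinity receptor for IgG, differed by 0.03 ± 0.037, and its 2 probe sets gave opposite signs in single regions.

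The lysosomal and secreted products were mixed. Mpeg1 averaged over regions was 0.52 ± 0.13 higher in KO by its mean (limma adjusted p = 0.0559), and Ly86 0.43 ± 0.16. Lyz2, by contrast, differed by 0.02 ± 0.16, with 8.07 ± 0.48 in KO and 8.05 ± 0.62 in controls (SD, n = 12 each). F13a1, a transglutaminase subunit of the clotting system that macrophages also make, differed by 0.04 ± 0.18, and Cybb, the NADPH oxidase subunit of phagocytes, by 0.14 ± 0.11. Pf4 was lower by its mean, 10.46 ± 0.37 in KO and 10.78 ± 0.37 in controls (-0.32 ± 0.15, adjusted p = 0.198). All 6 measured genes of the megakaryocyte list and all 7 of the erythroid list also had lower means in KO, with medians of -0.17 and -0.22 and 0 of them called, and the smallest p for Gp9 (-0.18 ± 0.096) and Gata1 (-0.22 ± 0.084).

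**Figure D4:**
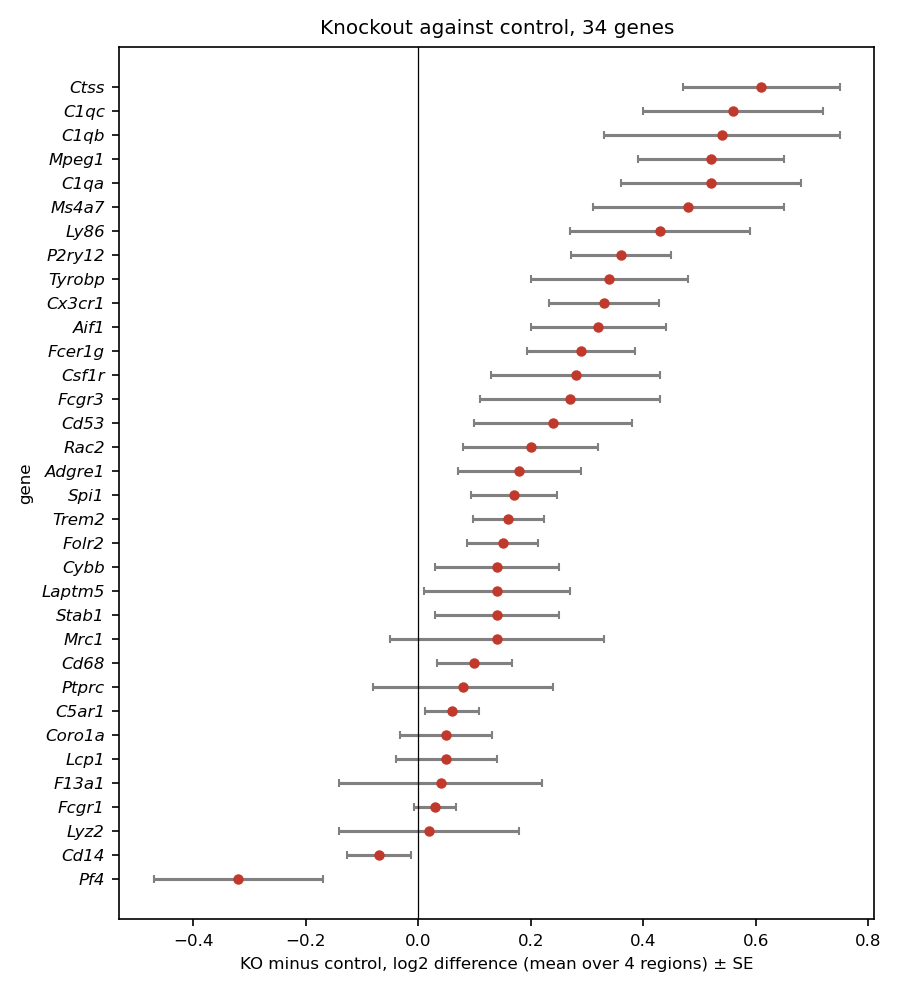
KO minus control log2 difference, averaged over the 4 regions, with its SE, for the 34 genes ordered by size. It runs from 0.61 for Ctss to -0.32 for Pf4, with 32 genes above 0 and 0 past the adjusted threshold.

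With 1 array left out, the number called lay between 0 and 6, while between 6 and 2133 of all genes were called. It was 6 without KO maxilla proximal 3 (8.45% of all genes higher and 5.89% lower), without KO mandible distal 3 (3.37% and 2.22%) or without control maxilla distal 1 (1.39% and 0.861%). It was 3 without KO maxilla distal 3 (1.98% and 1.10%) or without control mandible distal 2 (2.20% and 1.28%). Without the 4 doubted arrays Ctss was called (0.48, limma adjusted p = 0.000598, against 0.101% of all genes higher and 0.054% lower), and the median of the members was 0.11.

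By region, the only calls with all 24 arrays were in the proximal maxilla. There 3 of 34 genes were called higher in KO and 0 lower, against 3.25% of all genes higher and 2.53% lower. These were P2ry12 (0.78 ± 0.18, limma adjusted p = 0.0227), Ctss (1.03 ± 0.28, adjusted p = 0.0368) and Coro1a (0.58 ± 0.16, adjusted p = 0.0446). P2ry12 reached the filter of at least 3 arrays only through arrays labelled KO, so its test is not independent of its selection. At an unadjusted p under 0.05, 12 members were higher and 0 lower, against 12% and 13.9% of all genes. The C1q genes differed there by 1.06 ± 0.32 for C1qc, 1.01 ± 0.43 for C1qb and 0.93 ± 0.31 for C1qa, and did not pass (adjusted p = 0.0584, 0.144 and 0.0759).

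P2ry12 had 6.20, 6.38 and 6.07 in the KO proximal maxilla and 5.23, 5.45 and 5.64 in controls. All 3 control values lie below the 30th percentile, so the size of its difference is uncertain. Over all regions it lay above that percentile in 7 KO arrays and 1 control array, so it passed the filter only through arrays labelled KO. Coro1a had 11.25, 10.97 and 10.50 in KO and 10.09, 10.44 and 10.45 in controls, close to overlapping through KO array 3. The same KO arrays had neuron scores of 3.31, 2.99 and 1.17, against -0.23 to 0.11 in the control proximal maxilla. Without KO arrays 1 and 2 the Coro1a difference was 0.17, and 0 members were called. The part of neurons in the difference was not tested.

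No call of the proximal maxilla held without KO arrays 1 or 2 or without control arrays 1 or 2, fits in which 0.0875% to 0.464% of all genes were higher and 0.0404% to 0.215% lower, and 1 was left without control array 3 (0.498% and 0.195%). There were 8 without KO mandible distal 1 (3.80% of all genes higher and 3.33% lower) and 8 without KO maxilla proximal 3 (11.4% and 11.2%). Over the fits with 1 array left out, the difference lay between 0.65 and 1.24 for Ctss, 0.67 and 0.88 for P2ry12 and 0.41 and 0.78 for Coro1a. With the 4 doubted arrays left out 1 remained, Ctss (0.65, limma adjusted p = 0.0369, against 0.0809% of all genes higher and 0.0202% lower), and the median of the members was 0.19 where it was 0.49.

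**Figure D5:**
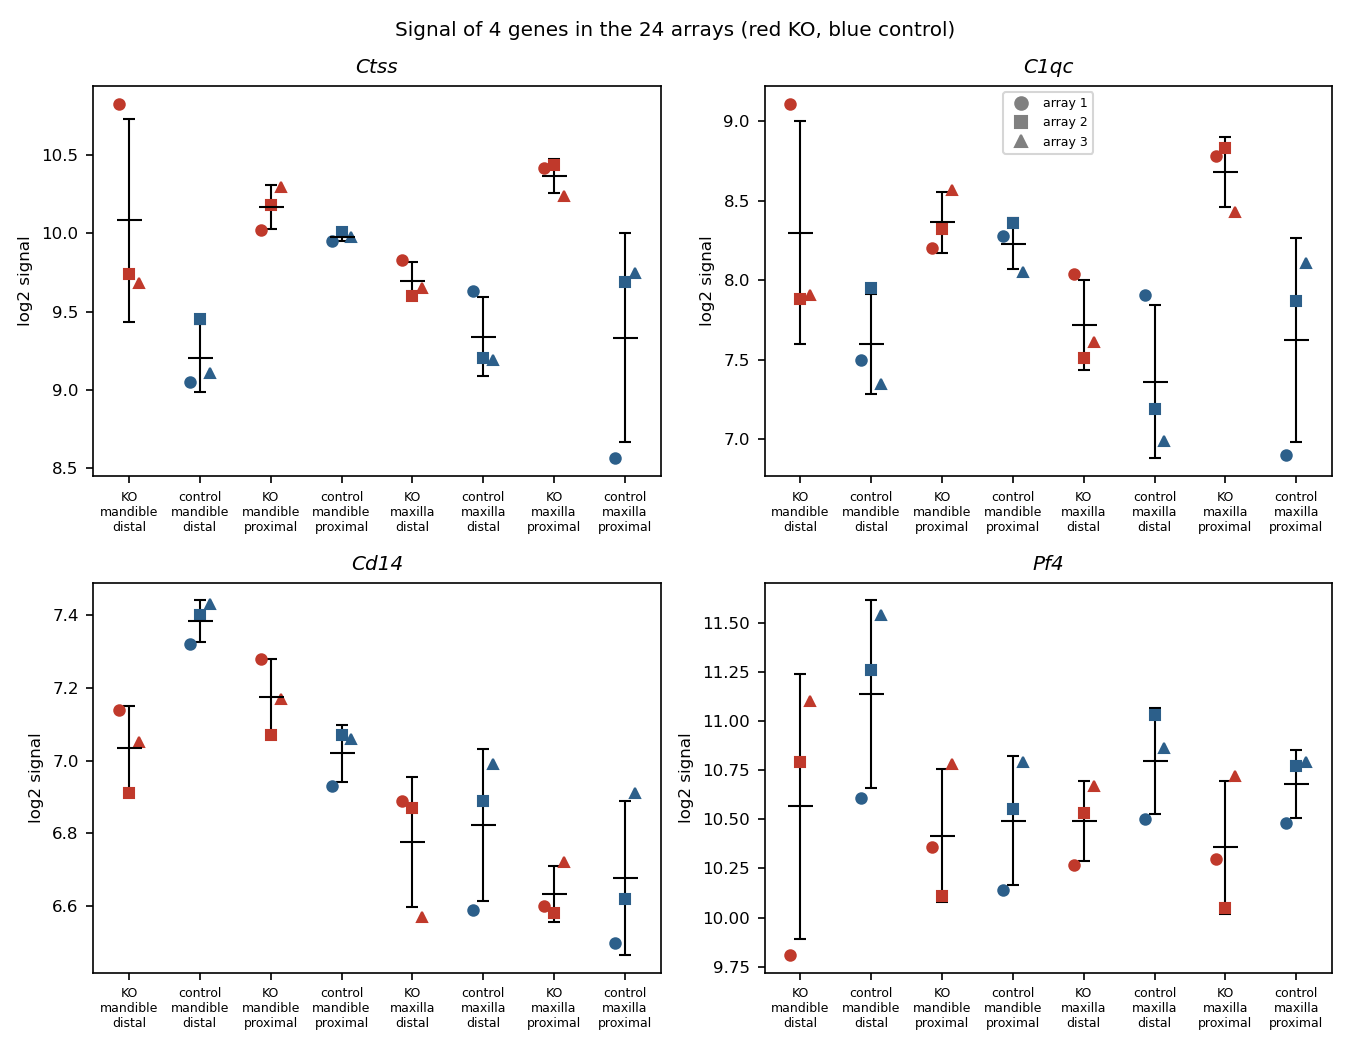
Log2 signal of Ctss, C1qc, Cd14 and Pf4 in each array, KO (red) beside control (blue) for each region, with the mean and SD of 3 arrays. KO array 1 is the highest distal mandible array for Ctss (10.83) and C1qc (9.11) and the lowest for Pf4 (9.81).

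In the distal mandible 0 members passed, against 0.121% of all genes higher and 0.0134% lower, and the median was 0.33 with all arrays and 0.08 without KO array 1. At an unadjusted limma p under 0.05, 8 were higher and 1 lower, against 7.75% and 4.89% of all genes. P2ry12, which passed the filter only through arrays labelled KO, is among the 8. Mpeg1 had 9.20, 8.14 and 7.93 in KO and 7.33, 7.85 and 7.37 in controls, without overlap (0.91 ± 0.26, limma adjusted p = 0.167). The 1 member lower at an unadjusted p under 0.05 was Cd14. It had 7.14, 6.91 and 7.05 in KO and 7.32, 7.40 and 7.43 in controls, also without overlap (-0.35 ± 0.11, limma adjusted p = 0.219). In all, 6 of 34 members had a lower mean in KO, and the lowest difference was -0.57, of Pf4. Without the 4 doubted arrays 0 members passed, against 0.0742% and 0.0135% of all genes.

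The other regions gave 0 calls and 0 members at an unadjusted limma p under 0.05. In the proximal mandible 0.0134% of all genes were higher and 0.0403% lower by adjusted p, and 2.1% and 0.759% by unadjusted p. The median of the members was 0.08, and Folr2, a folate receptor, had the smallest p with a difference of 0.26. Without the 4 doubted arrays 0 members passed there, against 0.00674% of all genes in each direction. In the distal maxilla 0.0134% and 0.00672% of all genes were called, and 1.71% and 0.948% by unadjusted p. The median of the members was 0.04, with Ctss at 0.35 and C1qa at 0.36. Without the 4 doubted arrays 0 members passed in the distal maxilla, against 0.0135% of all genes higher and 0% lower, but 28 of 34 were positive and the median was 0.24. With 1 array left out the median lay between -0.07 and 0.24 and the C1qa difference between 0.20 and 0.67.

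Whether the KO difference itself differed between jaws or ends was tested as an interaction. Between jaws, 0 of 34 genes passed, against 0% of all genes higher and 0.0336% lower, and Coro1a had the smallest p (-0.51 ± 0.16 for mandible minus maxilla, limma adjusted p = 0.542). It was called without KO maxilla proximal 3, where 2.63% of all genes were lower and 0.928% higher. At an unadjusted p under 0.05 it was the only member, against 3.29% of all genes higher and 3.33% lower. Between ends, 0 of 34 passed, against 0.00672% and 0% of all genes, and 3 members were lower at an unadjusted p under 0.05, against 1.42% of all genes lower and 2.87% higher. These were Fcgr1 (-0.21 ± 0.074), P2ry12 (-0.39 ± 0.18) and Cd14 (-0.25 ± 0.11), and the Fcgr1 value was 0.01 with its other probe set. P2ry12 passed the filter only through arrays labelled KO, so its test is not independent of its selection.

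Genes around the macrophage programme were counted by list for KO against control over the 4 regions. Of 14 measured lysosomal proteases and storage genes, 13 had a higher mean in KO (median 0.14), 7 at an unadjusted limma p under 0.05 and 0 after adjustment. Of all genes 53.7% had a higher mean in KO, and 12.6% at that p. The 7 included the proteases Ctsl (0.23 ± 0.066), Lgmn (0.33 ± 0.098), Ctsd (0.20 ± 0.063) and Ctsh (0.43 ± 0.15). The list's score correlated with that of the 34 genes at 0.85 over 24 arrays. Of 4 measured complement genes outside C1q, all 4 had higher means, with C3ar1, the receptor of fragment C3a, at 0.33 ± 0.11 (adjusted p = 0.0942).

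Upstream and uptake genes were counted in the same way. Of 7 CSF1 ligands and growth factor receptors 5 had higher means in KO (median 0.02). Csf3r, the receptor for granulocyte colony stimulating factor, had their smallest p with 0.09 ± 0.049, while Csf1 was at 0.06 ± 0.070 and Il34, the other ligand of the Csf1r receptor, at 0.07 ± 0.050. Of 11 measured myeloid transcription factors 6 were positive (median 0.03), with the smallest p for Irf8 at 0.19 ± 0.084. Of 12 phagocytic receptors and bridging proteins 7 had higher means. Scarb1, a receptor for lipoproteins and dying cells, differed by -0.17 ± 0.047 and the receptor Mertk by -0.19 ± 0.061, while the related receptor Axl (0.25 ± 0.098) and its ligand Gas6 (0.36 ± 0.14) were above 0. Chemokines and their receptors had a median of 0.09, with 7 of 8 measured genes positive and Cxcl12 at 0.41 ± 0.16. Of 4 measured MHC class II genes 3 were positive (median 0.03), with Cd74 at 0.08 ± 0.096. None of the genes of these lists passed after adjustment, and the smallest limma adjusted p was 0.0698 for Scarb1.

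Other blood cells and tissues were read beside the members in the same comparison. Granulocyte genes had a median of -0.06 (8 of 11 listed measured), mast cell genes 0.10 (3 of 7), lymphoid genes 0.02 (6 of 10) and endothelial genes 0.03 (10 of 11), with 0 called. Their genes with the smallest p were Mpo (-0.26 ± 0.14), Hdc (0.10 ± 0.074), Il7r (0.18 ± 0.11) and Emcn (0.25 ± 0.14). Mcpt4, Tpsb2, Tpsab1 and Ms4a2 of mast cells, Elane and Ctsg of granulocytes and Cd3g and Ms4a1 of lymphocytes lay below the filter. All 10 skeletal muscle genes had higher means in KO, with a median of 1.90 and 0 called after adjustment, the smallest p being that of Des (1.13 ± 0.26, limma adjusted p = 0.0521). The muscle score ranged from -3.18 to 2.59 in the 12 KO arrays and from -3.14 to 2.11 in the 12 control arrays, and correlated at 0.75 with the score of the 34 genes. All 5 measured Schwann and glial genes had higher means (median 0.59), and Cdh19 was called (1.00 ± 0.22, limma adjusted p = 0.0488). Their score correlated at 0.69 with that of the members, over a range of -0.37 to 1.66 in KO and -1.44 to 0.61 in controls. Of 10 neuronal genes 7 had higher means in KO (median 0.22), and Nefl was called (1.67 ± 0.33, limma adjusted p = 0.0347). Tubb3 (-0.13), Stmn2 (-0.22) and Elavl4 (-0.32) had lower means. The neuron score correlated at 0.37 with that of the members. Epithelial genes had a median of -0.05 (9 measured, with Krt5 at 0.31 ± 0.31) and mesenchymal genes -0.04 (7 measured, with Prrx2 at -0.31 ± 0.11), and 0 were called. The scores of these lists correlated at -0.62 and -0.49 with that of the members. The part of these tissues in the differences of the members was not tested.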

How the data were processed

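Total RNA was measured on 24 single-colour arrays with 45101 probe sets. The deposited table holds log2 signal, computed by the authors with RMA per the submitters' processing notes, with the version and build not given in the sources used here. It had 0 missing values, and array medians lay between 7.26 and 7.38. The platform annotation gave 34945 probe sets 1 symbol, 932 several, 9160 none, and 64 were controls. No array repeated another (root mean square differences of at least 0.196).

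Each of 18193 genes was read from its highest probe set. Genes above the 30th percentile of the array (5.85 to 5.93) in at least 3 arrays were tested, 14879 in all. Limma 3.58.1 in R 4.3.3 fitted 8 group means (16 residual degrees of freedom), with two-sided moderated tests, Benjamini-Hochberg adjustment over all genes tested in each comparison, and a threshold of 0.05 on adjusted p. The fit was tested on simulated data. The number of arrays limits the precision.

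Array numbers were not shown to pair KO with control arrays: their deviations from group means correlated at a median of 0.05 between KO and control arrays of 1 region and number (-0.15 to 0.39). Within a genotype the median was 0.15 for 1 number and -0.11 between numbers, so a random block of genotype and number was an alternative.

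Members, lists and alternatives were chosen with earlier results of these data known. Named are the 8 members with the smallest p over the 4 regions, those called anywhere, and up to 3 with the smallest p in each other comparison. Of the other lists, called genes (up to 4) or the gene with the smallest p are named. Further names were chosen after their values were seen. Alternatives were array centring, cyclic loess, other filters, probe sets, priors, array weights, replicate blocks, only the groups compared, and fits without single arrays or sets of arrays.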

Additional observations from a re-analysis of the deposited data

How the results depend on the processing

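Counts below are members called of 34, limma adjusted p under 0.05. For KO over the 4 regions, 0 became 1 with cyclic loess, a trend and robust prior or without the 4 doubted arrays, 2 with a filter at the 50th percentile, 10 with array weights and 3 with the array number as a fixed replicate block, and lay between 0 and 6 with 1 array left out. In the distal mandible it lay between 0 and 1, and in the KO difference between jaws between 0 and 1, with 1 array left out. In the proximal maxilla, 3 became 7 with array weights, 1 without the 4 doubted arrays, and 0 without KO maxilla proximal 1 and 2, without the 4 control arrays numbered 2 or with only the groups compared, and lay between 0 and 8 with 1 array left out. For mandible against maxilla, 7 became 12 with array medians centred, 4 with cyclic loess or the 50th percentile filter and 2 without the 4 control arrays numbered 2, and lay between 5 and 13 with 1 array left out. For distal against proximal, 0 became 28 with array weights, 1 with genotype and number as a random replicate block and 26 without the 4 doubted arrays, and lay between 0 and 15. In control mandibles, 0 became 1 with cyclic loess, 9 with array weights, 2 with the random replicate block, 10 without the 4 doubted arrays and 6 with only the groups compared, and lay between 0 and 1. In control maxillae it became 3 without the 4 doubted arrays. The replicate block moved no other member count by over 1.5 times. Fcgr1 changed sign in the proximal mandible, where 0.14 became -0.03 with the mean of its probe sets and -0.20 with its other probe set, in the distal maxilla (-0.10 became 0.07) and in the KO difference between ends (-0.21 became 0.01). Of the log2 differences of named genes under all alternatives, 1365 kept direction and side of the threshold, 76 lost and 76 gained a call, and 4 changed sign. Of the medians over the members, 394 moved by less than the spread between arrays and 8 by more. The same fits moved all genes too. KO over the regions called 70 of all genes, but 172 with cyclic loess, 192 with the trend and robust prior, 258 with the 50th percentile filter, 1102 with the fixed block, 2906 with array weights, 6 with the random block and 23 without the 4 doubted arrays. In the proximal maxilla array weights called 3245 of all genes and only the groups compared 0, between jaws centring called 7512, cyclic loess 6842 and the 50th percentile filter 6031, and leaving out the 4 control arrays numbered 2 called 17 and 5197 in these comparisons. Between ends array weights called 5168, the random block 1706 and 20 arrays 2639, and in control mandibles 2504, 924 and 987. Counts over all genes moved by over 1.5 times in 154 of their fits and not in 248, and those for KO over the regions ran from 6 to 2906. Causes were not tested. Signal near the 30th percentile limits P2ry12 and Cybb.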
